A study of Homo sapiens with 9 samples.

Results

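Interferon-stimulated genes are genes whose transcription is induced by interferons. A set of 35 of them was followed through 9 RNA-seq libraries of cells labelled HepG2, a human hepatocellular carcinoma line. The members were the rows of the deposited table of normalized counts whose Ensembl identifiers carry the 35 symbols of the set. All 35 symbols were found, among 61093 genes listed in the table. The cells of 3 libraries were given SKF-96365, described with the series as inhibiting TRPV2, a cation channel. Those of another 3 libraries were given 2-APB, described there as an agonist, and 3 libraries came from control cells, whose treatment label is NULL. The 2-APB libraries are titled ABP and named TRPV2 in the value columns, and they were assigned by their treatment label. Neither dose nor duration of treatment, vehicle, batch or date is labelled. The labels do not say whether the libraries of a group are separate cultures, so p-values measure only the spread between these samples, which may be technical. Every group carries the same line and tissue label, and no label names an interferon as a treatment.

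Type I and type III interferons bind cell-surface receptors that activate the kinases JAK1 and TYK2. The kinases phosphorylate STAT proteins, and STAT2 and IRF9 are subunits of the resulting complex ISGF3. ISGF3 binds the interferon-stimulated response element (ISRE) in promoters, whereas the response to interferon gamma acts through the gamma-activated site (GAS). The products of the induced genes bind foreign RNA, hold virus particles at membranes, conjugate the ubiquitin-like protein ISG15 to other proteins and present antigen. Many of them are also transcribed at a basal level in unstimulated cells, hepatocytes and hepatoma lines included.

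Normalized counts are gene counts divided by a size factor for each library, so they can be compared between libraries. Depth was 14786059 to 19026545 reads per library. Libraries did not stand in their groups across the 17492 genes that were tested: control 3 had a mean correlation of 0.987 with SKF-96365 2 and 3, against 0.959 with control 1 and 2. SKF-96365 1 had a mean correlation of 0.978 with control 1 and 2, against 0.971 with SKF-96365 2 and 3. That mean joins 0.984 with control 1 and 0.973 with control 2, the latter close to 0.972 with SKF-96365 2. With 2-APB 1, 2 and 3 the correlations of SKF-96365 1 were 0.980, 0.981 and 0.988, so it did not stand with control alone. 2-APB 3 stood closer to SKF-96365 1 (correlation 0.988) and control 1 (0.986) than to 2-APB 1 (0.980) and 2-APB 2 (0.981). Results are given with and without control 3 and SKF-96365 1, and 2-APB 3 was kept in both. Of 10 hepatocyte markers, only SERPINA1 passed the filter on low values, with a mean of 339 normalized counts, while ALB, AFP, APOA1, TTR and HNF4A had means between 0.224 and 4.24. The cell line label therefore did not have its defining hepatocyte transcripts behind it, and the cells are described by their labels only. The summed level of the 8 immune cell markers was 3.50 to 4.43 CPM in SKF-96365 libraries, 4.97 to 6.52 in 2-APB libraries and 3.38 to 3.92 in control libraries. Of these only CD14 and ITGAM passed the filter, and CD3E was at 0 in all 9 libraries, as were the plasmacytoid dendritic cell markers CLEC4C and LILRA4 (of whose 3 markers only IL3RA was tested). The 4 endothelial markers summed to 0.574 to 1.63 CPM in SKF-96365 libraries, 0.421 to 1.50 in 2-APB libraries and 0.498 to 4.00 in control libraries. The 6 markers of fibroblasts and stellate cells summed to 45.9 to 126 CPM in SKF-96365 libraries, 59.9 to 128 in 2-APB libraries and 62.6 to 130 in control libraries (129.8 in control 3). The part of these markers in the results was not tested, and in bulk RNA fewer cells of a type and less RNA per cell cannot be told apart.

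Most of the set was measurable in every library, and no member passed the adjusted test in any of the 3 comparisons between groups, nor did any other gene (0%). Together the 35 genes held 0.209% to 0.281% of the normalized counts of a library. Of them, 33 reached 10 normalized counts in at least 3 libraries and were tested, while IFI44L and XAF1 did not. Per kilobase of annotated exon, the membrane proteins IFITM3 and IFITM2 had the highest mean levels of the set, with 5579 and 2953 normalized counts per kb. B2M followed with 1616, ISG15 with 681, IFIT3 with 615 and IFIT2 with 356 normalized counts per kb. The lowest levels per kb were those of MX1 with 5.30, IFI27 with 2.52, XAF1 with 0.773 and IFI44L with 0.680. These lengths join the exons of all annotated transcripts, 6079 bases for B2M against 1348 for IFITM3, so the order depends on the annotation. Without division by length B2M was highest, with a mean of 9826 normalized counts against 7521 for IFITM3. MX1 and IFI44L are widely used as markers of an interferon response, and higher members such as ISG15 and IFIT3 are induced by interferons too. The exon lengths of MX1 and IFI44L are 8616 and 10240 bases. The exons of 12 members share bases with another annotated gene and the strand setting of the counting is not given, so part of their counts may belong to the partner. The largest shares are those of IRF9 with AL136295.5 (48.4% of the exon length) and XAF1 with PRAL (38.3%). IFITM1 and IFITM2 share 351 exon bases and the IFITM genes are close paralogs, so their counts are uncertain against each other.

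Promoters of the set were searched for the response elements of interferon signalling. Windows of 300 bases, 250 before to 50 after each annotated start, were available in RefSeq (GRCh38.p14) for 29 of the 35 members, and for 27305 genes in all. The ISRE core was searched as GAAA, any pair of bases and GAAA again, and the GAS as TTCNNNGAA. Both were searched on either strand, and some matches overlap others. The ISRE core was found in 21 of the 29 members (72.4%), against 4.38% of all genes. The GAS was found in 10 of the 29 members (34.5%), against 9.38% of all genes. The windows of STAT2, TRIM25, HERC6 and XAF1 held neither. A match is a description of letters and shows no binding. The promoters of IFIT1 and IFIT5, which encode related RNA-binding proteins and lie on the same strand of chromosome 10, are shown whole because the genes differed in the order of their libraries, with ISRE cores in capitals.
IFIT1 (chr10:89392373-89392672, plus strand): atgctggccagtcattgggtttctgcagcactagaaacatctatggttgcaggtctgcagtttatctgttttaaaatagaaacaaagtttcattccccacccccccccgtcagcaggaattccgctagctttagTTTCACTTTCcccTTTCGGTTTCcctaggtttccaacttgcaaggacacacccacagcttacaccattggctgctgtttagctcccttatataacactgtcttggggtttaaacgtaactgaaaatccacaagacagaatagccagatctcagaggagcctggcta
IFIT5 (chr10:89414318-89414617, plus strand): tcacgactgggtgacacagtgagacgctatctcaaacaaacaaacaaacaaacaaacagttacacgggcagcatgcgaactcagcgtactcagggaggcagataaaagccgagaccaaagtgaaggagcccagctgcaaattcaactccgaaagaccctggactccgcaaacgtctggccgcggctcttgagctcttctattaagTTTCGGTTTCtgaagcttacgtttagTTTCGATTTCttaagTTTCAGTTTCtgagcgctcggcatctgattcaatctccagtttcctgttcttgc

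The IFIT1 window held 2 ISRE cores, the nearer ending 94 bases before the start, and the IFIT5 window held 3, of which the nearest spans the start itself. All are in the reverse orientation, so the capitals begin with TTTC and end with TTTC on the gene's strand. Stretches of 40 bases around an ISRE core are given for further members whose libraries are described below, each on the strand of its gene.
IFIT3 (chr10:89332420-89332459, plus strand): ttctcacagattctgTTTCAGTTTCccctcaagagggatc
ISG15 (chr1:1013375-1013414, plus strand): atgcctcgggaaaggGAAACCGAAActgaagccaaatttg
OAS3 (chr12:112938316-112938355, plus strand): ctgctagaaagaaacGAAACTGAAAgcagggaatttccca
IFI44 (chr1:78649756-78649795, plus strand): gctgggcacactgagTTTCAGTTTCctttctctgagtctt
IFIH1 (chr2:162318681-162318720, minus strand): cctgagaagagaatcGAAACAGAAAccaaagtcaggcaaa
DDX60 (chr4:168318781-168318820, minus strand): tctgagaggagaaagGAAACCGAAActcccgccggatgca
SAMD9 (chr7:93118091-93118130, minus strand): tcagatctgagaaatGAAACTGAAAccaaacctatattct
PARP14 (chr3:122680795-122680834, plus strand): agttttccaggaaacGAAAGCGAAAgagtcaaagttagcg
B2M (chr15:44711364-44711403, plus strand): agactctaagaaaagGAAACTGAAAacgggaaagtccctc

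Among the transcription factors of the set, STAT2 (ENSG00000170581), a subunit of ISGF3, had 938, 1758 and 1756 normalized counts in SKF-96365 libraries 1 to 3. It had 1173, 1199 and 910.1 in the 2-APB libraries and 817, 1091 and 1722 in the control libraries. The high values of STAT2 were those of SKF-96365 2, SKF-96365 3 and control 3, and the groups overlapped. IRF9, the DNA-binding subunit of ISGF3, averaged 39.7 ± 6.08 normalized counts in SKF-96365 libraries, 43.7 ± 3.79 in 2-APB libraries and 43.7 ± 19.0 in control libraries (SD, n = 3 each). Control 1, with 22.1, was its lowest library and control 2, with 57.8, its highest. IRF1, which binds related elements and is induced by interferon gamma, averaged 389.9 ± 67.6 normalized counts with SKF-96365, 345 ± 28.8 with 2-APB and 389.7 ± 86.1 in control (SD, n = 3 each). IRF7, an amplifier of type I interferon production, had 114, 164 and 120.0 normalized counts in SKF-96365 libraries, 97.6, 106 and 108 in 2-APB libraries and 106, 73.0 and 141 in control libraries. The 2-APB values of IRF7 lay below all SKF-96365 values, while both treatments overlapped control.

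The RNA sensor IFIH1 (ENSG00000115267), also called MDA5, starts interferon production when it binds long double-stranded RNA. It had 529, 868 and 899.8 normalized counts in SKF-96365 libraries, 563, 575 and 493 in 2-APB libraries and 414, 727 and 856 in control libraries. The helicase DDX60 (ENSG00000137628) had 389.6, 738 and 728 normalized counts in SKF-96365 libraries, 465, 466 and 390.5 in 2-APB libraries and 273, 533 and 610.5 in control libraries. Both sensors were highest in SKF-96365 2, SKF-96365 3 and control 3 and lowest in control 1, and in both genes the 3 groups overlapped.

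The IFIT proteins bind the 5′ ends of RNA that lack the methylation of host messenger RNA. IFIT1 (ENSG00000185745) had 1357, 1411 and 1493 normalized counts in SKF-96365 libraries, 1142, 1092 and 1276 in 2-APB libraries and 948, 1788 and 1339.9 in control libraries. All 3 SKF-96365 values of IFIT1 lay above all 2-APB values, and the controls spanned both groups. IFIT2 (ENSG00000119922) had 1458, 1908 and 2115 normalized counts with SKF-96365, 1097, 1103 and 1287 with 2-APB and 869, 1499 and 1811 in control. IFIT3 (ENSG00000119917), a partner that stabilises IFIT1, had 1525, 1835 and 2155 with SKF-96365, 1043, 1069 and 1586 with 2-APB and 1096, 2503 and 1801 in control. IFIT2 again separated SKF-96365 from 2-APB without overlap, and IFIT3 did not, because 2-APB 3 stood above SKF-96365 1. IFIT5 (ENSG00000152778) had 534, 399 and 436 normalized counts in SKF-96365 libraries, 609, 611 and 597 in 2-APB libraries and 642, 676 and 423 in control libraries. Its 2-APB values all lay above its SKF-96365 values, the reverse of IFIT1 and IFIT2. Control 2 was its highest library, as it was for IFIT1 and IFIT3. The 3 low libraries of IFIT5 were SKF-96365 2, SKF-96365 3 and control 3, which were the 3 high libraries of IFIT2.

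The OAS enzymes make the 2′-5′-linked oligoadenylates that activate RNase L. OAS3 (ENSG00000111331), the largest of them, had 1631, 1560.4 and 1601 normalized counts with SKF-96365, 1800.0, 1789.8 and 2050.0 with 2-APB and 1903, 2454 and 1465 in control. Every 2-APB value of OAS3 was above every SKF-96365 value, and control 3 was the lowest of the 9 libraries. OAS1 averaged 206 ± 11.0 normalized counts with SKF-96365, 215 ± 26.1 with 2-APB and 215 ± 60.8 in control (SD, n = 3 each). OAS2 averaged 164 ± 8.09 with SKF-96365, 177 ± 23.9 with 2-APB and 195 ± 92.3 in control (SD, n = 3 each), and the wide control SD came from 108 in control 1 and 292 in control 2. OASL, a relative without the enzymatic activity, averaged 479.8 ± 32.9 normalized counts with SKF-96365, 409 ± 62.1 with 2-APB and 436 ± 148 in control (SD, n = 3 each). MX1, a GTPase that blocks viral ribonucleoproteins, had 55.9, 45.2 and 47.6 normalized counts with SKF-96365, 44.9, 42.1 and 33.5 with 2-APB and 34.7, 50.7 and 56.4 in control. The exonuclease ISG20 averaged 211 ± 51.7 with SKF-96365, 177 ± 15.7 with 2-APB and 165 ± 31.6 in control (SD, n = 3 each).

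**Figure D1:**
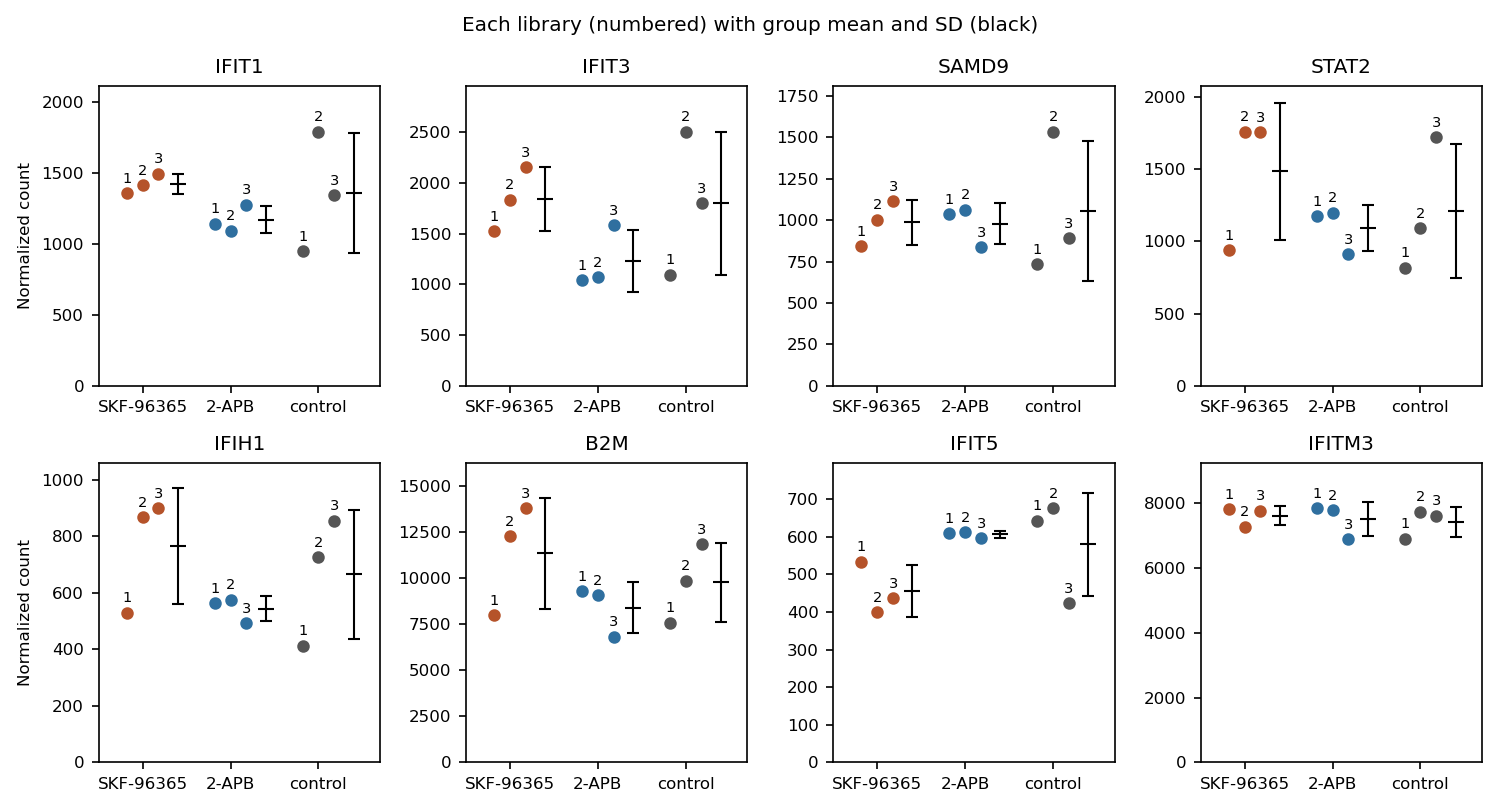
Normalized counts (vertical axes, starting at 0) of 8 interferon-stimulated genes in the numbered libraries of the SKF-96365, 2-APB and control groups, with the group mean and SD in black (n = 3 each). STAT2, IFIH1 and B2M are high in SKF-96365 2, SKF-96365 3 and control 3, IFIT5 is low in those libraries, IFIT1, IFIT3 and SAMD9 are highest in control 2, and IFITM3 is nearly level between 6897 and 7850.0 normalized counts.

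The IFITM proteins block fusion of virus envelopes with cell membranes. IFITM3 (ENSG00000142089) had 7819.8, 7278 and 7772 normalized counts with SKF-96365, 7850.0, 7793 and 6897 with 2-APB and 6910.4, 7748 and 7619 in control. IFITM2 (ENSG00000185201) had 5028, 4213 and 4395 with SKF-96365, 4795, 4631 and 4644 with 2-APB and 4387, 4789 and 4131 in control. These genes, with the highest levels per kb, also had the lowest standard errors of their log2 fold changes among the members, 0.11 each. IFITM1 was far lower, with 48.0, 70.9 and 53.6 normalized counts in SKF-96365 libraries, 35.1, 46.4 and 27.6 in 2-APB libraries and 21.0, 29.4 and 80.4 in control libraries. Its highest library was control 3 and its lowest control 1, so the controls alone spanned all other values. BST2, known as tetherin because it holds budding virions at the cell surface, had 257, 351 and 428 normalized counts with SKF-96365, 352, 344 and 288 with 2-APB and 214, 222 and 366 in control.

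Of the genes named for their interferon inducibility, IFI35 (ENSG00000068079) had 621, 488 and 549.6 normalized counts with SKF-96365, 613, 578 and 601 with 2-APB and 531, 626 and 538 in control. IFI44 (ENSG00000137965) had 381, 333 and 319 with SKF-96365, 278, 243 and 451 with 2-APB and 297, 786 and 337 in control. Control 2 alone was high for IFI44, with a value above all others of the gene. IFI6, a mitochondrial and endoplasmic reticulum protein that limits cell death, averaged 261 ± 35.6 with SKF-96365, 252 ± 60.7 with 2-APB and 248 ± 52.0 in control (SD, n = 3 each). IFI27 had 12.2, 11.3 and 15.9 normalized counts with SKF-96365, 14.3, 6.87 and 9.86 with 2-APB and 8.42, 8.11 and 7.30 in control. All its SKF-96365 values lay above all its control values, at levels between 7.30 and 15.9 normalized counts. IFI44L was between 1.05 and 15.7 normalized counts over the 9 libraries and was not tested.

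ISG15 (ENSG00000187608), the ubiquitin-like modifier, had 640.3, 680.5 and 818 normalized counts with SKF-96365, 554, 443 and 634 with 2-APB and 419, 721 and 857 in control. Its 2-APB values all lay below its SKF-96365 values, and control 1 was the lowest library and control 3 the highest. HERC5, the main ligase for ISG15 in human cells, averaged 397 ± 116 normalized counts with SKF-96365, 333 ± 18.3 with 2-APB and 375 ± 105 in control (SD, n = 3 each). HERC6, its relative, averaged 159.9 ± 28.3 with SKF-96365, 144 ± 11.3 with 2-APB and 178 ± 81.9 in control. USP18, which removes ISG15 and dampens receptor signalling, averaged 102 ± 21.5 with SKF-96365, 107 ± 22.8 with 2-APB and 124 ± 43.6 in control (SD, n = 3 each, for both). All 3 genes overlapped between the groups. TRIM25 (ENSG00000121060), a ubiquitin ligase that activates the sensor RIG-I, had 2918, 2237 and 2131 normalized counts with SKF-96365, 2834, 2692 and 2849.7 with 2-APB and 3055, 2744 and 2172 in control. TRIM25 was lowest in SKF-96365 2, SKF-96365 3 and control 3, as IFIT5 and OAS3 were.

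SAMD9 (ENSG00000205413), an antiviral protein that halts translation, had 843, 1003 and 1115 normalized counts with SKF-96365, 1036, 1061 and 837 with 2-APB and 734, 1533 and 892 in control. PARP14 (ENSG00000173193), an ADP-ribosyltransferase, had 1883, 2742 and 2789.6 with SKF-96365, 2270.3, 2625 and 1869.6 with 2-APB and 1920.4, 3414 and 2500.4 in control. SAMD9 and PARP14 were highest in control 2, and the groups overlapped in both. PARP9, which forms a complex with the ligase DTX3L, averaged 425 ± 25.1 normalized counts with SKF-96365, 541 ± 85.6 with 2-APB and 531 ± 111 in control (SD, n = 3 each). B2M (ENSG00000166710), the light chain of MHC class I, had 7978, 12251 and 13774 normalized counts with SKF-96365, 9276, 9074 and 6821 with 2-APB and 7579.6, 9842 and 11839 in control. B2M shared its 3 highest libraries with STAT2 and IFIH1. XAF1, a proapoptotic protein, was between 0 and 9.87 normalized counts and was not tested.

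**Figure D2:**
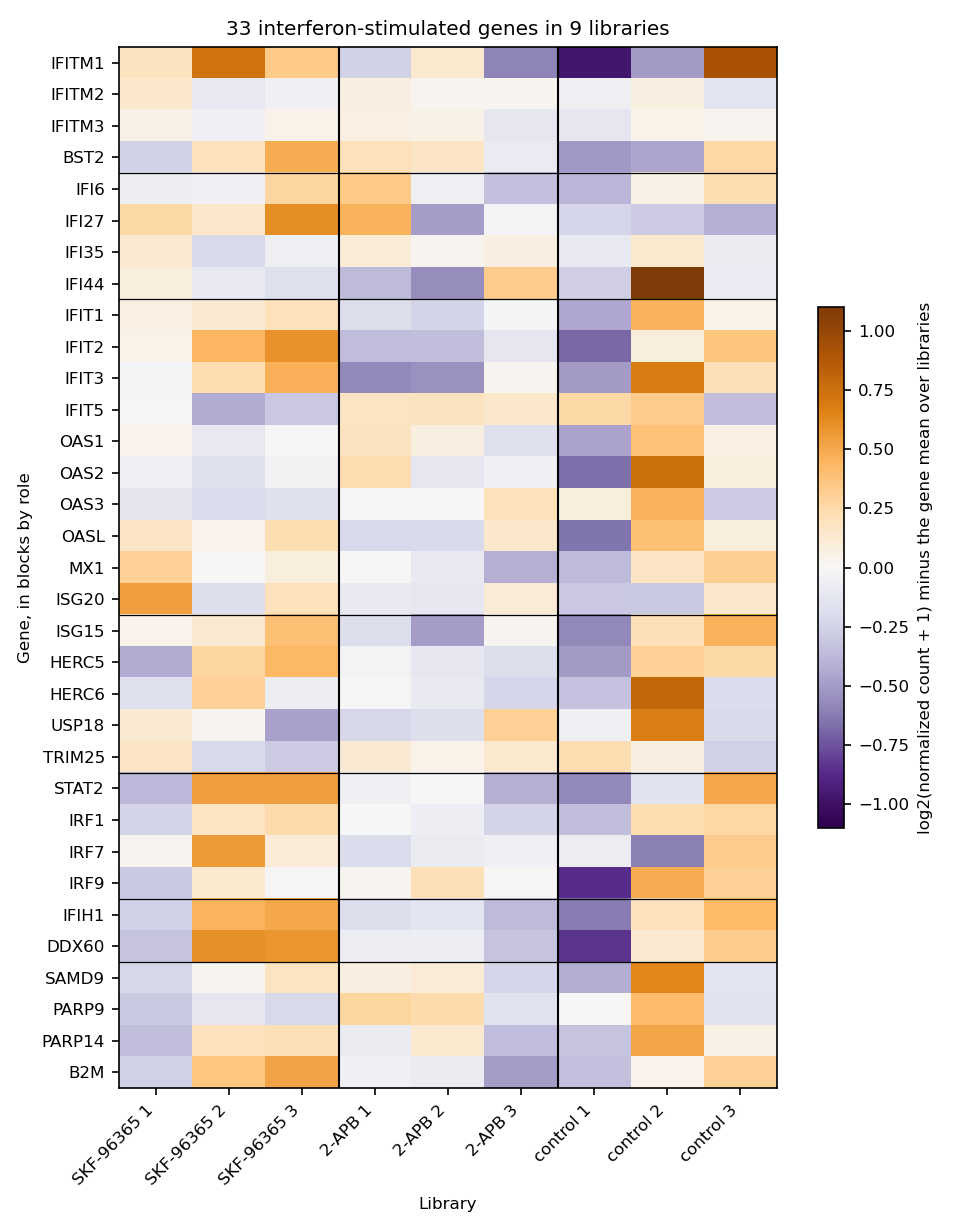
Log2(normalized count + 1) minus the mean of each gene over the 9 libraries (colour), for the 33 tested interferon-stimulated genes (rows, in blocks by role) in the SKF-96365, 2-APB and control libraries (columns). Control 1 is low and control 2 high across most rows, while the 2-APB libraries lie between -0.59 (IFITM1 in 2-APB 3) and 0.46 (IFI27 in 2-APB 1).

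For SKF-96365 against control, the question is whether the compound described as a channel inhibitor alters the set. None of the 33 tested members passed an adjusted p of 0.05 (limma with Benjamini-Hochberg adjustment over 17492 genes), nor did any other gene (0%). Of the members, 20 had a positive log2 fold change and 13 a negative one, with a median of 0.08, while 49.5% of all tested genes were positive, with a median of -0.00. The highest log2 fold changes were those of IFI27 (0.65, SE 0.38) and IFITM1 (0.61, SE 0.44), both at low levels. IFIT2 had 0.44 (SE 0.24), DDX60 0.41 (SE 0.32) and BST2 0.38 (SE 0.24). Without control 1 the value was 0.13 for IFIT2, 0.059 for DDX60 and 0.22 for IFITM1, while it was 0.66 for IFIT2 and 1.16 for IFITM1 without control 3 and 0.72 for DDX60 without SKF-96365 1. The lowest were those of IFIT5 (-0.33, SE 0.19), IFI44 (-0.32, SE 0.34) and PARP9 (-0.30, SE 0.17). Adjusted p-values of the members ran from 0.789 to 0.987. At an unadjusted p under 0.05, 0 members and 699 genes (4.00%) passed in limma, 0 members and 258 genes in edgeR, and 0 members and 241 genes in DESeq2. In limma without control 3 the counts were 8 of 33 members and 4460 of all 17492 tested genes. Without SKF-96365 1 they were 5 of 33 members and 2247 of 17492 genes. In both fits the members passed at about the rate of all tested genes. After adjustment edgeR called 0 genes and DESeq2 called 2, of which none is a member. Both count models had SKF-96365 1 and SKF-96365 2 only, without SKF-96365 3. The groups did not overlap in 1 member, IFI27, against 6.20% of all tested genes.

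For 2-APB against control, no member and no gene passed the adjusted threshold (0%). Here 13 of 33 members had a positive log2 fold change, with a median of -0.04, against 49.7% of all tested genes and a median of -0.00. IFIT3 had the lowest log2 fold change, -0.49 (SE 0.28), followed by IFI44 with -0.45 (SE 0.34). Without control 2 these were -0.22 for IFIT3 and -0.02 for IFI44, and without control 1 they were -0.81 for IFIT3 and -0.72 for IFI44. The highest was that of BST2, with 0.33 (SE 0.24). ISG15 had -0.24 (SE 0.25), which was -0.55 without control 1 and -0.03 without control 3, and B2M had -0.21 (SE 0.23). Adjusted p-values were 0.9995 for all 33 members. At an unadjusted p under 0.05, 0 members and 489 genes (2.80%) passed in limma, 0 members and 367 genes in edgeR and 0 members and 350 genes in DESeq2, and both count models called 0 genes after adjustment. In no member did the groups fail to overlap, against 7.57% of all tested genes. This comparison and that of SKF-96365 share the control libraries, so their values are not independent of each other.

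For 2-APB against SKF-96365, which sets the described agonist against the described inhibitor, 0 members and 0 genes passed the adjusted threshold (0%). A positive log2 fold change was found in 10 of 33 members, with a median of -0.14, against 51.0% of all tested genes and a median of 0.01. IFIT2 had 1097, 1103 and 1287 normalized counts with 2-APB, against 1458, 1908 and 2115 with SKF-96365, a log2 fold change of -0.64 (SE 0.24, limma adjusted p = 0.684). IFIT5 had 609, 611 and 597 with 2-APB, against 534, 399 and 436 with SKF-96365, a log2 fold change of 0.42 (SE 0.19, limma adjusted p = 0.684). These were the 2 members with an unadjusted p under 0.05, against 7.30% of all tested genes (1277 genes). edgeR had 492 such genes and DESeq2 483, with 0 members among them in either, again without SKF-96365 3. After adjustment edgeR called 0 genes and DESeq2 called 1, which is no member. The log2 fold change was -0.59 for IFIT3 (SE 0.28), and IFIH1 had -0.46 (SE 0.27), DDX60 -0.43 (SE 0.32), B2M -0.41 (SE 0.23), ISG15 -0.40 (SE 0.25) and STAT2 -0.39 (SE 0.30). On the other side, PARP9 had 0.34 (SE 0.17), OAS3 0.23 (SE 0.17) and TRIM25 0.21 (SE 0.16). The groups did not overlap in 8 members, against 17.0% of all tested genes. ISG15, IRF7, IFITM1, IFIT1, IFIT2 and MX1 were lower in every 2-APB library than in every SKF-96365 library, and IFIT5 and OAS3 were higher. Doses are not given, so these values do not set the compounds against each other at a matched dose.

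**Figure D3:**
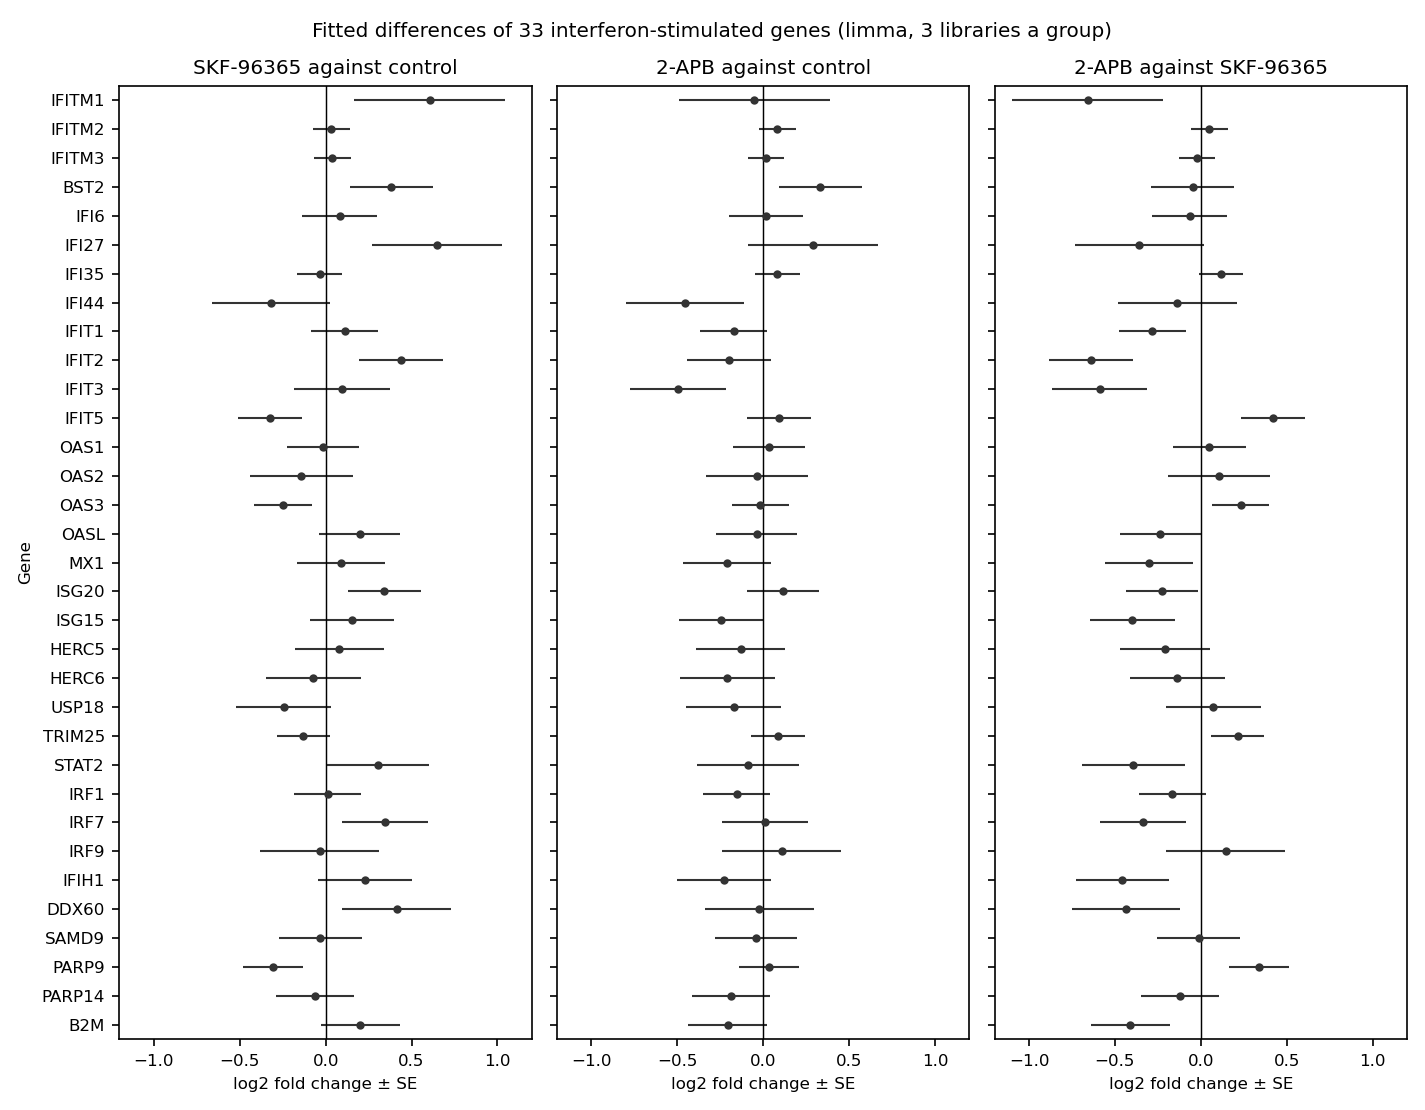
Log2 fold changes (horizontal axes, points) with their standard errors (bars) of 33 interferon-stimulated genes from limma, for SKF-96365 against control, 2-APB against control and 2-APB against SKF-96365 (3 libraries a group). The points lie between -0.66 and 0.65 and none passed the adjusted threshold of 0.05.

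Within groups, the members' libraries lay furthest apart in control. Control 2 was above control 1 in 30 of 33 members (90.9%), against 48.8% of all tested genes, and the exceptions were IFI27, TRIM25 and IRF7. The median of control 2 over control 1 was 1.49-fold over the members and 0.993-fold over all tested genes. Control 1 was the lowest of the 9 libraries in 18 members (54.5%), against 12.0% of all tested genes. Control 2 was the highest in 15 members (45.5%), against 16.6% of all tested genes. Among the IFIT, OAS, MX1 and ISG20 genes control 2 was above control 1 in 10 of 10, with a median of 1.76-fold. These include ISG20 at 1.01-fold and IFIT5 at 1.05-fold. In the sensors it was 2 of 2 (median 1.85-fold), in ISG15 conjugation 4 of 5 (1.72-fold) and in the transcription factors 3 of 4 (1.41-fold). In the IFI genes it was 3 of 4 (1.27-fold), in the IFITM genes and BST2 4 of 4 (1.11-fold) and in the remaining members 4 of 4 (1.54-fold). The median fold between the highest and the lowest library of a group was 1.37 over the members with SKF-96365, 1.22 with 2-APB and 1.80 in control. Over all tested genes it was 1.38 with SKF-96365, 1.28 with 2-APB and 1.50 in control. Hepatocyte markers (10 genes) summed to 20.0 to 24.9 CPM with SKF-96365, 16.5 to 21.1 with 2-APB and 12.96 to 32.5 in control. The lowest sum was in control 1 and the highest in control 2. Of these markers only SERPINA1 passed the filter on low values, so the sums rest largely on that gene. The part of these markers in the pattern was not tested. No label separates control 1 from control 2, and these values are a description of 2 libraries without a test.

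**Figure D4:**
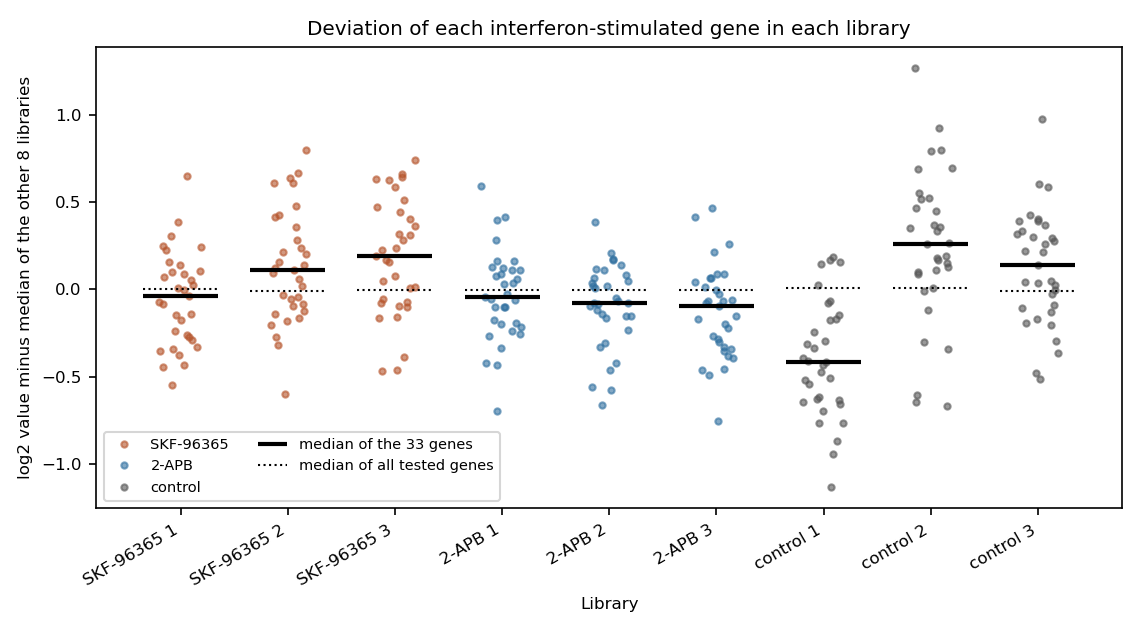
Log2(normalized count + 1) of each of 33 interferon-stimulated genes (points) minus the median of the other 8 libraries (vertical axis), by library (horizontal axis, SKF-96365, 2-APB and control), with the median of the members (solid line) and of all tested genes (dotted line). The members' median is -0.42 in control 1 and 0.26 in control 2, between -0.09 and 0.19 in the other libraries, and near 0 for all tested genes.

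A separate pattern involved control 3 and the SKF-96365 libraries it stood with. SKF-96365 2, SKF-96365 3 and control 3 were the 3 highest libraries in 7 of 33 members (21.2%), namely STAT2, IRF7, IFIH1, DDX60, IFIT2, IFITM1 and B2M, against 16.4% of all tested genes. They were the 3 lowest in 3 members (9.09%), IFIT5, OAS3 and TRIM25, against 17.6% of all tested genes. With control 3 and SKF-96365 1 left out, 10 of 33 members passed the adjusted threshold for SKF-96365 against control, at limma adjusted p-values between 0.00416 and 0.0447, but 27.6% of all tested genes did too. The 7 with higher values in SKF-96365 had log2 fold changes of 1.27 for IFITM1, 0.94 for DDX60, 0.90 for STAT2, 0.83 for BST2, 0.81 for IFIT2, 0.69 for IFIH1 and 0.59 for B2M. The 3 with lower values in SKF-96365 had -0.66 for IFIT5, -0.45 for OAS3 and -0.41 for TRIM25. For 2-APB against control, 0 members and 0 genes (0%) passed in the same fit. An unadjusted p under 0.05 was found there for 1 of 33 members and 2758 of 17492 genes. For 2-APB against SKF-96365, 6 of 33 members passed, against 13.1% of all tested genes. They were IFIT2 (-0.79), IFIH1 (-0.70), STAT2 (-0.69) and B2M (-0.64), lower with 2-APB, and IFIT5 (0.54) and TRIM25 (0.35), higher with 2-APB. The libraries left out were known to stand with another group, so these p-values are too small. The fit compares the remaining 7 libraries only, 2-APB 3 among them.

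Genes upstream and beside the set were measured too, from a list of 76, of which 61 were tested. None passed the adjusted threshold in any of the 3 comparisons, and at an unadjusted p under 0.05 there were 1 for SKF-96365 against control (4.00% of all tested genes), 0 for 2-APB against control (2.80%) and 5 for 2-APB against SKF-96365 (7.30%). A positive log2 fold change was seen in 30 of the 61 for SKF-96365 against control (49.5% of all tested genes), in 16 for 2-APB against control (49.7%) and in 26 for 2-APB against SKF-96365 (51.0%). None of the 7 interferon genes listed was tested, and the list holds no interferon alpha or omega gene. IFNG was at 0 in all libraries, and IFNB1 and IFNL1 had means of 2.91 and 2.85 normalized counts. Over the libraries IFNB1 ran from 0 to 7.20 in SKF-96365 2, and IFNL1 from 0 to 7.30 in control 3. All 6 receptor subunits were tested, and IFNAR1, a chain of the type I receptor, had a mean of 1490.2 and IFNGR2, of the type II receptor, of 773. IKBKE, a kinase upstream of interferon production, had the lowest p of the 61 for SKF-96365 against control, with 161, 142 and 122 normalized counts with SKF-96365, against 195, 252 and 258 in control (log2 fold change -0.72, SE 0.17, limma adjusted p = 0.789). Its SKF-96365 values all lay below its control values. The highest means of the remaining lists were those of the signal transducers STAT3 (7206 normalized counts) and JAK1 (4835), and of the phosphatase gene PTPN11 (5163) and the feedback inhibitor SOCS3 (913). The RNA editing enzyme ADAR had a mean of 5350.2, the kinase PKR, encoded by EIF2AK2, of 3012, the secreted protein LGALS3BP of 8603 and the nuclear body protein SP100 of 1508.

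Of the antigen presentation genes, 13 of 13 were tested and 0 passed the adjusted threshold, and HLA-E and TAPBP, which loads peptide onto class I molecules, had the highest means, 6363 and 5046 normalized counts. HLA-B, a heavy chain that pairs with B2M, had 1751, 2809 and 2965 normalized counts with SKF-96365, 1693, 1472 and 1404 with 2-APB and 1262, 2235 and 2696 in control. HLA-E, a non-classical class I heavy chain, had 6683, 8114 and 8273 with SKF-96365, 5252, 5167 and 5621 with 2-APB and 5203, 4489 and 8471 in control. SKF-96365 2, SKF-96365 3 and control 3 were the 3 highest libraries in 7 of these 13 genes, HLA-B, HLA-C, HLA-E, TAP1, TAPBP and ERAP1 among them, as in B2M, against 16.4% of all tested genes. The same was so in 2 of 6 receptor genes (IFNAR2 and IFNGR1) and in 1 of 6 genes of kinases and transcription factors (STAT3). It was so in 3 of 19 other interferon-stimulated genes, 1 of 12 genes of nucleic acid sensing and 0 of 5 negative regulators. For 2-APB against SKF-96365, the log2 fold change was -0.69 for HLA-B (SE 0.27) and -0.52 for HLA-E (SE 0.21), each with a limma adjusted p of 0.684.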

How the data were processed

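Total RNA was turned into RNA-seq libraries with a SMARTer kit for messenger RNA, per the labels. The deposited values are a normalized signal: gene counts that the authors divided by DESeq2 size factors, per the submitters' processing notes, with no version given. The genome build, the annotation, the aligner, the counting tool and its strand setting are not given in the sources used here. Symbols were matched by Ensembl identifier for 60463 of 61093 rows. The 488 unnamed loci (0.205% to 0.275% of a library) were not removed, so any that passed the filter are among the tested genes.

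The members, gene lists and markers were chosen with earlier results of these data known. Genes with at least 10 normalized counts in at least 3 of 9 libraries were tested with limma 3.58.1 with an intensity trend (R 4.3.3) on log2(value + 1), so fold changes of low genes are understated. All 9 libraries shared 1 estimate of the spread, contrasts were two-sided, and p-values were Benjamini-Hochberg adjusted over 17492 genes. The procedure was tested on simulated counts with the same dispersion for every gene and libraries that stood in their groups. The libraries of this series did not, so the simulation does not show how well it works here. Values of each library were whole multiples of 1 step within 0.001 of a read. Reads were recovered from these in 8 libraries, and edgeR 4.0.16 and DESeq2 1.42.0 were run on them as alternatives. SKF-96365 3 was left out of the count models because its step of 0.992 was near 1. Its values met the same tolerance as those of the other libraries. The count models thus had 2 SKF-96365 libraries, SKF-96365 1 and SKF-96365 2. No molecular identifiers are described, so reads need not be independent molecules.

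By rule, every member is reported, with the value in each library where the mean was at least 500 or where the highest library was over 3 times the lowest at a mean of at least 50. From the other lists, any called gene and the highest-level genes were eligible, some results are not reported here, and IKBKE, HLA-B, and low members given by library were named after their values were seen. Levels per kb used the union of GENCODE 29 exons. Alternatives were other pseudocounts, filters, scalings, tools and sets of libraries.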

Additional observations from a re-analysis of the deposited data

How the results depend on the processing

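Under 21 alternative settings, 25 member values gave 507 results with the same direction and side of the threshold, 16 that passed it and 1 that reversed. These 25 were chosen after their values were seen, as those with the lowest p or a call under an alternative. All 16 came from leaving out control 3 and SKF-96365 1 together. That setting gave 4823 genes and 10 interferon-stimulated genes called for SKF-96365 against control, and 2283 genes and 6 interferon-stimulated genes for 2-APB against SKF-96365, against 0 each with all libraries. DESeq2 called 2 genes and 1 gene in these comparisons, and fitting only the 2 groups compared called 4 genes for 2-APB against SKF-96365, with no member among them. Without 1 library at a time, genes called ranged from 0 to 173 for SKF-96365 against control (173 without control 3) and from 0 to 4 for 2-APB against SKF-96365 (4 without control 3), and no member was called. The log2 fold change of IFIH1 for SKF-96365 against control ranged from -0.083 without control 1, where it reversed, to 0.47 without SKF-96365 1, and was 0.23 with all libraries. The members' median ranged from -0.11 to 0.22 for SKF-96365 against control, from -0.33 to 0.06 for 2-APB against control and from -0.23 to -0.10 for 2-APB against SKF-96365. The cause of these shifts was not tested. Deviations of libraries with the same number correlated between -0.35 and 0.50 over 9 pairs, 3 of them over 0.1, so the numbers were not taken as pairs, and a replicate block gave 0 calls in each comparison. With 3 libraries a group, members at under 20 normalized counts, such as IFI27, have little precision.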
